A study of Homo sapiens with 4 samples.

Results

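The genes of the AP-1, EGR1 and MYC transcription factors were followed in HaCaT cells, a spontaneously immortalized human keratinocyte line, after knockdown of ALKBH5, an enzyme that removes the m6A mark from RNA. The members are 10 genes, taken by symbol from the 58735 genes listed: FOS, FOSB, FOSL1, FOSL2, JUN, JUNB, JUND, ATF3, EGR1 and MYC. All 10 were among the 15075 genes with enough counts to be tested. The question that the comparison addresses is whether these genes differ in RNA level when ALKBH5 is silenced. Poly-A RNA was sequenced from 2 libraries of cells transfected with control siRNA (siControl) and 2 libraries of cells transfected with ALKBH5 siRNA (siALKBH5). All cells were grown in medium with fetal bovine serum and were transfected with the same reagent, with siControl labelled as WT and siALKBH5 as ALKBH5 knockdown. The labels do not give the time after transfection or which ALKBH5 siRNA was used, so the comparison holds 1 cell line and siRNA effects on other RNAs cannot be told apart from those of the knockdown. It is not stated whether the duplicates came from separate cultures, and the p-values measure only the spread between these libraries, which may be technical.

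AP-1 is a dimer of basic leucine zipper proteins. FOS proteins need a JUN partner, JUN proteins can also pair with each other, and ATF3 joins either JUN proteins or other ATF proteins at AP-1 and CRE sites in DNA. FOS, FOSB, JUN, JUNB, ATF3, EGR1 and MYC are immediate early genes, which are switched on within minutes by growth factors, serum, wounding or stress through the MAP kinases and whose short-lived mRNAs are soon removed. EGR1 is a zinc finger factor, MYC binds E-boxes together with MAX, and in the epidermis AP-1 is known for its part in differentiation genes such as IVL and in wound repair.

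The promoters of the 4 members that passed the test below, all as lower, are shown. Each holds the core of the CRE element, as do those of FOSB, FOSL2 and JUN, which did not pass. The sequences are the 250 bases before the transcription start in RefSeq (GRCh38.p14), written 5′ to 3′ on the gene's strand, with the matched motifs in capitals.
FOS (chr14:75278578-75278827, + strand): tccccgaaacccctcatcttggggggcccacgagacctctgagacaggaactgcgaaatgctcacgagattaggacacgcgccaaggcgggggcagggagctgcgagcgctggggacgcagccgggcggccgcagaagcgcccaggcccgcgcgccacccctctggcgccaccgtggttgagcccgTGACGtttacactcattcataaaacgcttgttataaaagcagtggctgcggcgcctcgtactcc
EGR1 (chr5:138465229-138465478, + strand): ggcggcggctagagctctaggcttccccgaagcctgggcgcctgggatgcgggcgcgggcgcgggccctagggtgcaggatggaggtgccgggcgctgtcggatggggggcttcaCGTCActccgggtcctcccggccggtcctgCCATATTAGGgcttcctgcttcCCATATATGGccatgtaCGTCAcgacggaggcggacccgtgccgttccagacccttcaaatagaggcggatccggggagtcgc
JUND (chr19:18281623-18281872, - strand): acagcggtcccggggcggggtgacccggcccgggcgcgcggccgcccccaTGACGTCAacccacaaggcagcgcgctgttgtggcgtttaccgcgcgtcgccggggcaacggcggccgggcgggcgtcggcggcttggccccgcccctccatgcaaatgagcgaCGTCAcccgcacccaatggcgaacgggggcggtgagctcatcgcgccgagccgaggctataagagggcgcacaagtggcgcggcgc
JUNB (chr19:12791236-12791485, + strand): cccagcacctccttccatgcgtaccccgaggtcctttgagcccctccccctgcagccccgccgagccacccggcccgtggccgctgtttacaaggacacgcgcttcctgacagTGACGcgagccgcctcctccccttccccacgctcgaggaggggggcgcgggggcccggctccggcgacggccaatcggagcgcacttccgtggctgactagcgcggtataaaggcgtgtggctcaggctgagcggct
The motifs searched on both strands were the AP-1 site TGACTCA, the CRE TGACGTCA, its shorter core TGACG, the E-box CACGTG, the EGR site GCGTGGGCG and the CArG box, which binds SRF. The shorter core is also contained in every CRE.

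RefSeq promoter windows of 300 bases, which include the first bases after the start, were found for 8 of the 10 members, with 2 starts for ATF3. FOSL1 and MYC were the others. The shorter core TGACG or its reverse complement was found in 7 of these 8 members, against 24.6% of 35116 promoters of 27305 genes. Among these 7 members, its first base lay 64 bases before the start in FOS and 60 bases before it in FOSB. EGR1 held the core 135 and 66 bases before its start, and 2 CArG boxes 105 and 83 bases before it, an element found in 1.29% of all promoters. JUND held a complete CRE 200 bases before its start, as 1.85% of all promoters do, and another core 86 bases before it. FOSL2 was the only member with the exact letters of the AP-1 site, TGACTCA on either strand, which 4.95% of all promoters hold. Variants of the site were not searched. No E-box was found in the 9 windows (7.26% of all promoters hold it), and no EGR site (0.795%). The shares over all promoters are counted per promoter, while the members are counted per gene. They include promoters of genes not tested here and were not matched for base content. These are matches of letters and were not tested as binding sites, and the letters were found in members that fell and in members that did not pass the test.

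**Figure D1:**
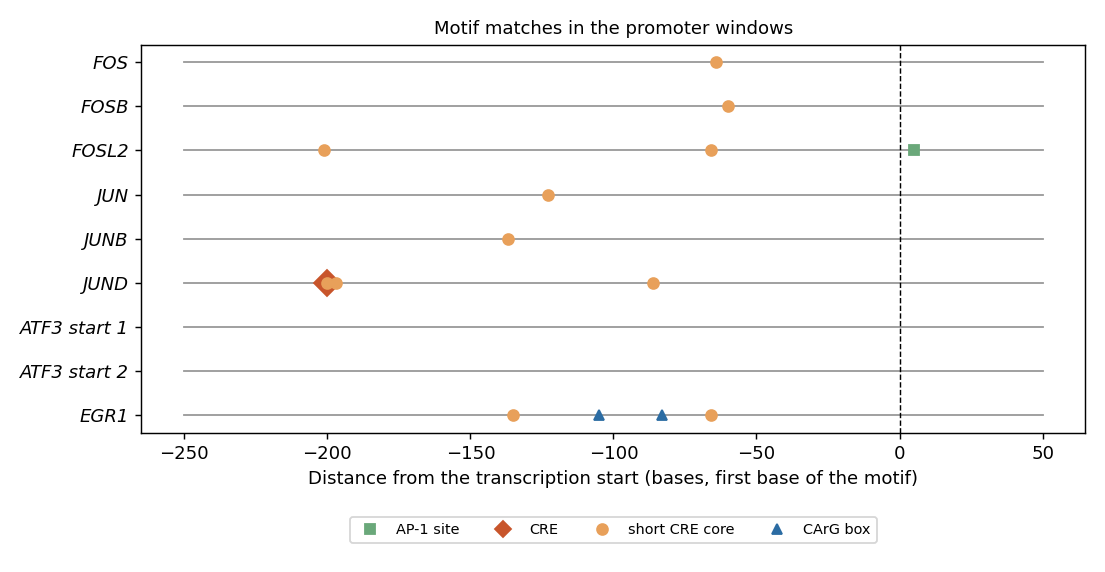
Motif matches in the RefSeq promoter windows of 8 members (ATF3 has 2 starts). The x axis is the distance in bases from the transcription start (dashed line) to the first base of the match. The orange points, the short CRE core, are in 7 of the 8 members, the blue triangles in EGR1 are its 2 CArG boxes, and the diamond in JUND is a complete CRE.

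ALKBH5 (ENSG00000091542, chr17:18183078-18209954), the targeted gene, was counted 1512 and 1576 times with siControl (replicates 1 and 2) and 956 and 816 times with siALKBH5. Its level was 90.7 ± 4.42 CPM, counts scaled to a common library size, in siControl and 50.4 ± 1.13 CPM in siALKBH5 (SD, n = 2 each), so 55.5% of it remained. Its log2 fold change of -0.85 (SE 0.05) had an adjusted p = 6.4e-15 by edgeR's quasi-likelihood test with Benjamini-Hochberg adjustment over all tested genes, and the labels and this gene go the same way. Library totals ran from 16017502 to 18837807 counts, and mitochondrial genes held 10.2% of the counts in each siControl library against 9.63% and 9.64% with siALKBH5. All 10 keratinocyte markers examined were expressed, with summed levels of 18763 to 19182 CPM in siControl and 24680 to 24749 CPM in siALKBH5, where 4 were higher and 3 lower. Of 7 fibroblast markers, COL1A2, PDGFRA and PDGFRB had 0 counts in every library. COL1A1 had 268 and 309 counts in siControl and 310 and 267 after knockdown, and made up most of the list. The list summed to 21.9 and 22.8 CPM in siControl and 18.7 and 19.1 CPM in siALKBH5, with 2 lower, DCN and LUM. The immune list summed to 2.42 and 3.17 CPM and to 4.23 and 3.83 CPM, with 1 of 5 higher. The endothelial list summed to 32.5 CPM in each siControl library and to at most 35.5 CPM after knockdown, with 1 of 3 higher and 1 lower. The melanocyte list summed to 14.1 and 13.7 CPM and to 11.9 and 14.2 CPM, with no call among the 2 tested genes. In that list TYR had 0 counts in every library, and MITF had 175 and 198 counts in siControl and 163 and 169 after knockdown. The part of these shifts in the results that follow was not tested.

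FOS and EGR1 fell after ALKBH5 knockdown, FOS to less than 50% of its control level, and JUND and JUNB fell by small amounts, while FOSL2 and MYC stayed close to their control levels. Of the 10 members, 4 passed as lower and 0 as higher with an adjusted p under 0.05 in edgeR, while 6 did not pass. Over all genes tested, 17.3% fell and 19.3% rose at this threshold, and the median log2 fold change was -0.06 over the members and -0.01 over all genes. At an unadjusted p under 0.05, edgeR also gave 0 higher and 4 lower members, and so did DESeq2. At the fold threshold of the study, a log2 change of at least 1 in size, only FOS passed among the members, against 1.30% of all genes lower and 1.62% higher. In 5 members both siALKBH5 libraries lay under both siControl libraries and in 2 both lay over them, against 33.5% and 32.8% of all genes. With 2 libraries against 2 there are 3 ways to split them, and no permutation of the labels gives a p below 0.33. In bulk RNA, fewer cells that express a gene and less RNA of it per cell cannot be told apart.

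**Figure D2:**
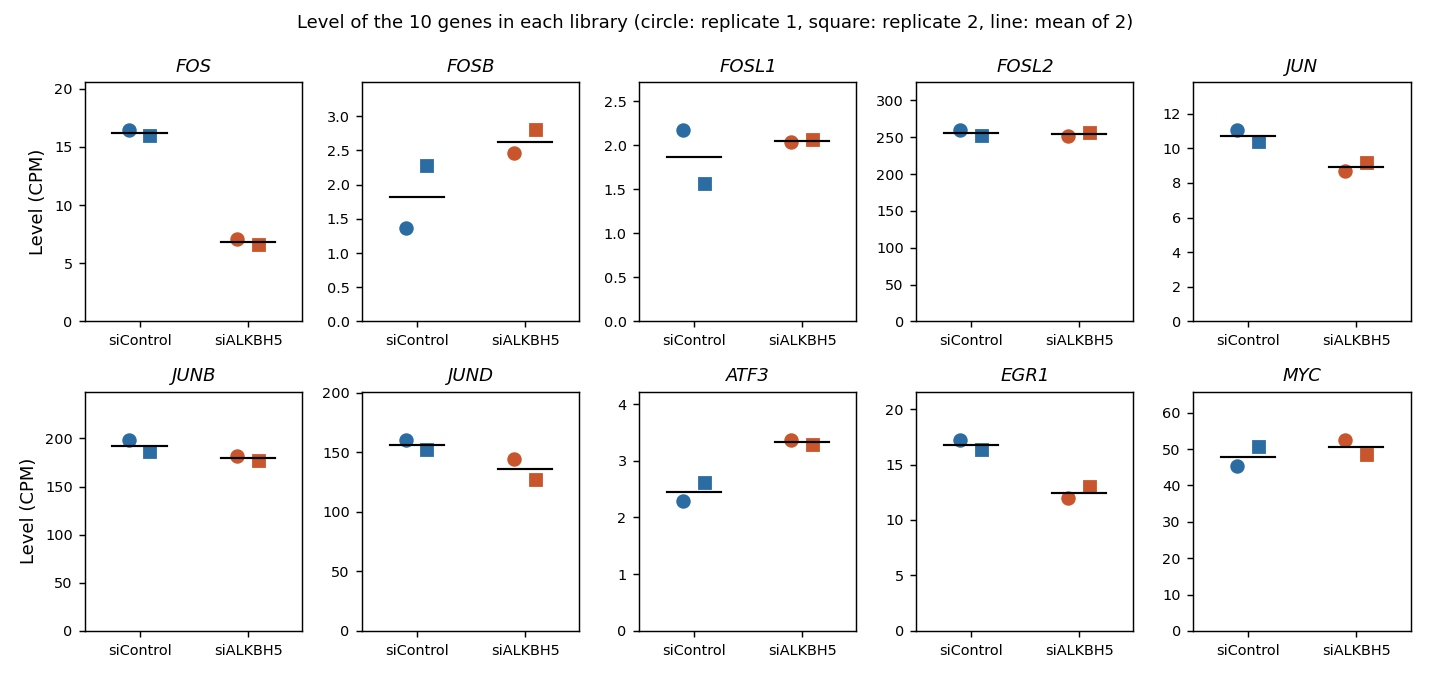
Level of each of the 10 genes in scaled counts (CPM, y axis, starting at 0 and scaled for each gene) in the siControl (blue) and siALKBH5 (orange) libraries. Circles are replicate 1, squares are replicate 2, and lines are means of 2. FOS and EGR1 sit clearly lower in siALKBH5, at 6.84 against 16.2 CPM and 12.5 against 16.8 CPM.

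FOS (ENSG00000170345, chr14:75278774-75282230) encodes the founding FOS protein, an immediate early partner of the JUN proteins. The siControl libraries held 265 and 287 counts of it and the siALKBH5 libraries 133 and 108, or 16.45 and 15.95 CPM against 7.12 and 6.56 CPM. Both knockdown libraries lay far below both controls. The mean level was 16.2 ± 0.35 CPM in siControl and 6.84 ± 0.39 CPM in siALKBH5 (SD, n = 2 each), which is 42.2% of control. The log2 fold change was -1.24 (SE 0.13, 95% interval from -1.50 to -0.98) with an adjusted p = 1.2e-09 by edgeR. FOS kept its call in all 10 alternatives run with the p threshold, and leaving out single libraries gave changes from -1.30 to -1.18.

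The other FOS genes did not pass the test. FOSB (ENSG00000125740, chr19:45467995-45475179), the immediate early relative of FOS, was low, at 22 and 41 control counts against 46 and 46 after knockdown. That is 1.37 and 2.28 CPM against 2.46 and 2.80 CPM, so the groups did not overlap, but the log2 fold change of 0.51 (SE 0.29, 95% interval from -0.09 to 1.11) had an adjusted p = 0.18 by edgeR. The difference depends on the control libraries, which lay far apart, and was 0.21 without siControl replicate 1 and 0.94 (adjusted p = 0.060 by edgeR) without siControl replicate 2. FOSL1 (ENSG00000175592, chr11:65892049-65900573), a FOS protein without a transactivation domain that accumulates later than FOS, was counted 35 and 28 times in siControl against 38 and 34 times after knockdown. The groups overlapped, and the log2 fold change was 0.14 (SE 0.31, 95% interval from -0.48 to 0.77). FOSL2 (ENSG00000075426, chr2:28392448-28417312), the FOS gene with by far the most counts here, reached 4183 and 4530 control counts against 4693 and 4220 after knockdown. At 259.6 and 251.8 CPM against 251.3 and 256.4 CPM, its groups overlapped, and the log2 fold change of -0.01 (SE 0.03) had a 95% interval from -0.07 to 0.05.

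Levels were compared between genes as CPM per kilobase of the listed gene length, which can be longer than the mRNA that the cells make. FOSL2 held 84.9% and 85.1% of the summed level of the 4 FOS genes in siControl and 90.4% and 90.8% in siALKBH5. FOS held 11.9% in each siControl library, but 5.66% and 5.14% after knockdown. The shares of FOSB and FOSL1 stayed at 2.78% or lower in every library. The summed level of the family was 42.8 and 41.3 CPM per kilobase in siControl and 38.8 and 39.5 in siALKBH5, so the groups did not overlap.

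**Figure D3:**
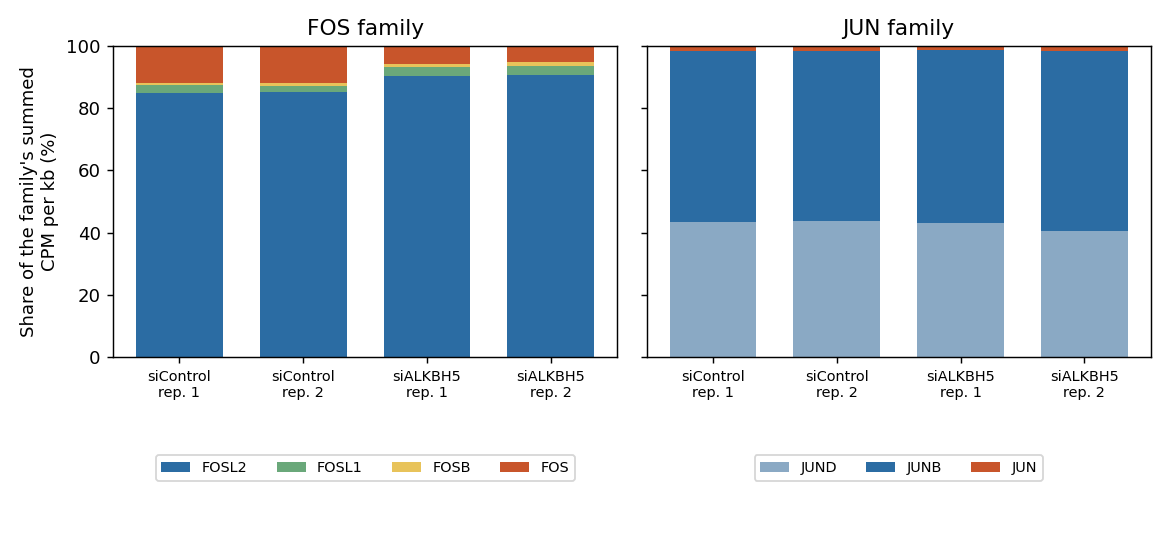
Share (%, y axis) of each gene in the summed CPM per kilobase of the FOS genes (left) and of the JUN genes (right), for each of the 4 libraries (x axis). The FOS share is 11.9% in each siControl library and drops to 5.66% and 5.14% with siALKBH5, while JUNB and JUND make up nearly all of the JUN genes in every library.

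Among the JUN genes, the abundant members JUND and JUNB fell slightly and JUN did not pass. JUND (ENSG00000130522, chr19:18279760-18281622), a JUN gene that most cells express at rest, was counted 2591 and 2737 times in siControl against 2702 and 2088 times after knockdown. This gave 160.8 and 152.1 CPM against 144.7 and 126.9 CPM. The groups did not overlap, and the siALKBH5 libraries lay further apart than the controls. The log2 fold change was -0.20 (SE 0.04, 95% interval from -0.29 to -0.11) with an adjusted p = 0.00048 by edgeR. The change of JUND depends on the libraries of the knockdown group, with -0.11 and an adjusted p = 0.059 without siALKBH5 replicate 2 and -0.30 without replicate 1 of that group, and DESeq2 gave an adjusted p = 0.12.

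JUNB (ENSG00000171223, chr19:12791496-12793315), which forms AP-1 dimers of lower activity than JUN, was counted 3204 and 3345 times in siControl against 3402 and 2901 times after knockdown. This gave 198.9 and 185.9 CPM against 182.1 and 176.3 CPM, and the groups were close to each other without overlap. Its log2 fold change of -0.10 (SE 0.04, 95% interval from -0.17 to -0.03) had an adjusted p = 0.026 by edgeR. The call of JUNB was lost without siControl replicate 1 (-0.05, adjusted p = 0.44), without siALKBH5 replicate 2 (-0.08, adjusted p = 0.18) and with DESeq2 (adjusted p = 0.13), and the change was -0.15 without siControl replicate 2. JUNB lies inside HOOK2 on the other strand, and 259 of its 1820 exon bases are also exon of HOOK2, which was counted 1309 and 1481 times in siControl against 1510 and 1273 times after knockdown. Whether the counting used strand is not given in the sources used here, so reads of these genes may be mixed there.

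JUN (ENSG00000177606, chr1:58780788-58784327), the founding JUN gene and an immediate early target of JNK signalling, was counted 178 and 186 times in siControl against 162 and 151 times after knockdown. At 11.05 and 10.34 CPM against 8.67 and 9.18 CPM the groups did not overlap. The log2 fold change of -0.26 (SE 0.13) had a 95% interval from -0.53 to 0.01 and an adjusted p = 0.13 by edgeR, so JUN did not pass. JUN made up 1.36% to 1.57% of the summed CPM per kilobase of the JUN genes, JUNB 54.7% to 57.8% and JUND 40.6% to 43.7%. The sum of the JUN genes was 199 and 187 CPM per kilobase in siControl and 180 and 168 in siALKBH5.

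ATF3 (ENSG00000162772, chr1:212565334-212620777), a stress-induced gene whose protein pairs with JUN proteins, was low as well. The control libraries held 37 and 47 counts and the knockdown libraries 63 and 54, or 2.30 and 2.61 CPM against 3.37 and 3.28 CPM. Both knockdown libraries lay above both controls, but the log2 fold change of 0.44 (SE 0.24, 95% interval from -0.06 to 0.93) had an adjusted p = 0.17 by edgeR.

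EGR1 (ENSG00000120738, chr5:138465490-138469315), an immediate early zinc finger factor, was counted 278 and 293 times in siControl against 223 and 214 times after knockdown. Its level was 17.3 and 16.3 CPM in siControl and 11.9 and 13.0 CPM in siALKBH5, without overlap. The means were 16.8 ± 0.69 and 12.5 ± 0.75 CPM (SD, n = 2 each), which leaves 74.4% of control. Its change on the log2 scale was -0.43 (SE 0.11, 95% interval from -0.66 to -0.20) with an adjusted p = 0.0029 by edgeR, and it kept its call in these 10 alternatives, with changes from -0.49 to -0.36 as each library was left out. The intervals of EGR1 and FOS do not overlap, and FOS fell further. NAB1, a corepressor that binds EGR1, also fell, by 0.29 on the log2 scale (adjusted p = 8.4e-07 by edgeR), and NAB2 did not pass. The other EGR genes were too low to test, with 0 to 3 counts for EGR2 per library, 3 to 7 counts for EGR3 and 0 for EGR4.

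MYC (ENSG00000136997, chr8:127735434-127741434), the E-box factor of growth and ribosome synthesis, was counted 729 and 908 times in siControl against 983 and 797 times after knockdown. At 45.2 and 50.5 CPM against 52.6 and 48.4 CPM the groups overlapped. The log2 fold change was 0.08 (SE 0.06) with a 95% interval from -0.05 to 0.21 and an adjusted p = 0.37 by edgeR. It ran from 0.0068 without siControl replicate 1 to 0.16 without siControl replicate 2, and MYC did not pass with any library left out. Within the precision of these libraries, a change of MYC of the size seen for EGR1 lies outside this interval.

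**Figure D4:**
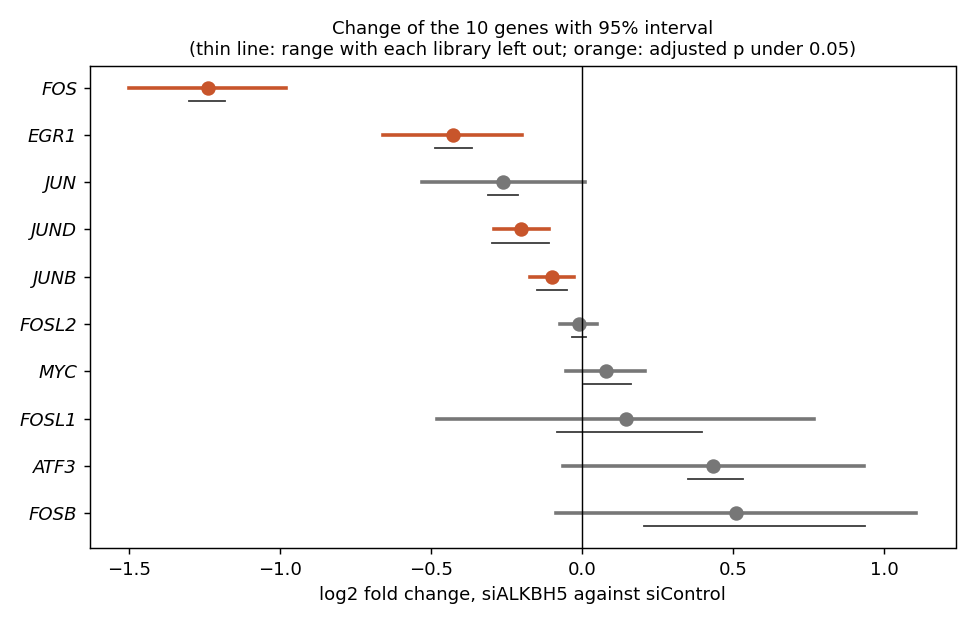
Log2 fold change of siALKBH5 against siControl (x axis) for the 10 genes, with points for the estimate and thick lines for its 95% interval. Thin lines give the range when each of the 4 libraries is left out in turn, and orange marks an adjusted p under 0.05. FOS stands apart at -1.24, followed by EGR1 at -0.43, and the intervals of FOSB, FOSL1 and ATF3, the genes with the fewest counts, are the widest.

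In order of mean level per listed gene length in siControl, the members were JUNB at 105.7 CPM per kilobase, JUND at 84.0, FOSL2 at 35.7, MYC at 15.9, EGR1 at 5.34, FOS at 5.00, JUN at 3.02, FOSL1 at 0.988, ATF3 at 0.607 and FOSB at 0.328. JUNB was higher per length than 97.8% of tested genes and FOSB than 8.91%. No neighbours in this order overlapped between their siControl libraries, and the closest were EGR1 at 5.50 and 5.19 and FOS at 5.08 and 4.93 CPM per kilobase. In siALKBH5, EGR1 stood at 3.80 and 4.14 and FOS at 2.20 and 2.03 CPM per kilobase, under JUN at 2.45 and 2.59. These places depend on the length used. The listed length of FOS is 3238 bases against 2158 in its mRNA, while EGR1 (3138) and JUN (3540) have the same length in both. Per mRNA length, FOS would lie over EGR1 in siControl and over JUN in each group. ATF3, at 4040 listed bases against 2033 in its mRNA, would then overlap FOSL1 (1887 against 1669) in siControl.

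The likeness of 2 genes was measured as the root mean square difference of their log2 CPM over the 4 libraries, each gene centred on its own mean, so 0 means the same pattern. JUN and EGR1 were each the nearest member to the other, at 0.084, and FOSL2 and JUNB were the closest pair, at 0.056. FOS had no close member, with EGR1 the nearest at 0.40. Among all genes of at least 10 CPM, the nearest to FOS were LINC02518 (0.067), TRIM22 (0.085) and KLK13 (0.10), with log2 fold changes of -1.14, -1.10 and -1.07. The nearest to EGR1 were ALS2CL, MDM2 and CYP27C1 (0.0099 to 0.011), and the nearest to MYC were ANKRD12, MACO1 and UBR2 (0.0069 to 0.012). These are descriptions over 4 libraries of genes that share the same samples.

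The mRNAs of immediate early genes often carry AU-rich elements in the 3′ UTR, which mark them for rapid decay. Windows of 30 bases from GENCODE 29 (GRCh38) are shown for FOS and EGR1, which fell, and for FOSL2, which did not pass, with each ATTTA in capitals.
FOS (chr14:75282058-75282087, + strand): tgtgtttttaATTTATTTAttaagatggat
EGR1 (chr5:138469064-138469093, + strand): ctgaaaatgtaaATTTAtaaatatattcag
FOSL2 (chr2:28416349-28416378, + strand): attgacATTTAttttattATTTAttttaaa
The FOS window lies 634 bases after the stop codon and holds 2 overlapping copies. The 3′ UTR of FOS had 5 copies of ATTTA, or 6.20 per kilobase, and that of MYC had 4, or 8.40 per kilobase, against a median of 1.50 per kilobase over 12312 tested coding genes. EGR1 had 1 copy, or 0.81 per kilobase, and FOSL2 had 9, or 1.85 per kilobase. The longer element TTATTTATT was found in FOS and FOSL2 and in 7.96% of all these genes. GGACT, a form of the motif at which m6A is often placed, was found 3 times in the mRNA of FOS, 4 times in that of MYC, 7 times in that of FOSL2 and 0 times in EGR1 and FOSL1, and 91.3% of the genes with a coding transcript hold it. The m6A mark was not measured in these libraries, and a match is not a modified site. JUN, JUNB and JUND have 1 exon, as 2.32% of these genes do, and FOS has 4 and EGR1 has 2 against a median of 9.

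The wider pathways around these factors were examined in 9 lists of 148 genes, of which 132 were tested. Of these, 40 rose, 29 fell and 63 did not pass, with a median log2 fold change of 0.01. Over all genes tested, 19.3% rose and 17.3% fell, and the counts of each list below are to be read beside these shares. No list was tested against them. At the fold threshold of the study 3 rose (KLF2, MMP1 and ODC1) and 0 fell by edgeR, against 1.62% higher and 1.30% lower of all genes. At that fold and an unadjusted p under 0.05, the lists held 0 lower genes by edgeR and 0 by DESeq2.

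Of the other AP-1 and CRE binding leucine zipper genes, 10 of 14 were tested, 2 rose and 4 fell, and the median was -0.10. MAFG, a small MAF protein, rose by 0.36 and ATF7, a relative of ATF2, by 0.26 on the log2 scale. MAF fell by 0.65, CREB1, the main CRE binding factor, by 0.32, and JDP2, a repressor of AP-1, by 0.26. ATF7 lost its call without siControl replicate 1 (adjusted p = 0.17), without siALKBH5 replicate 2 (adjusted p = 0.096) and with DESeq2 (adjusted p = 0.079).

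Of the other immediate early genes, 17 of 23 were tested, with 4 higher, 3 lower and 10 not passed. KLF2, a zinc finger factor, rose most, from 15 and 21 control counts to 91 and 69 after knockdown, with a log2 fold change of 2.10 (SE 0.28, adjusted p = 2.0e-07 by edgeR). KLF6 rose by 0.60 and PHLDA1 by 0.49 on the log2 scale. BTG2, an antiproliferative gene, fell from 395.1 and 386.2 CPM to 285.9 and 291.5 CPM, a change of -0.44 (SE 0.03, adjusted p = 6.9e-15 by edgeR). ZFP36L1 and ZFP36L2, whose proteins bind AU-rich elements and promote mRNA decay, fell by 0.44 and 0.36 on the log2 scale. Other immediate early genes thus moved in both directions.

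The lists on either side of the MAP kinase pathway also moved both ways. Of 21 genes of upstream MAP kinases and SRF cofactors, all tested, 7 rose and 4 fell. MAPK3, which encodes ERK1, rose by 0.35 and MAP2K2 by 0.30 on the log2 scale. SRF, the factor that binds CArG boxes, fell from 61.1 and 59.2 CPM to 52.0 and 50.9 CPM, a log2 change of -0.22 (SE 0.06, adjusted p = 0.0020 by edgeR), and its partner ELK4 fell by 0.24 on the log2 scale (adjusted p = 0.00030 by edgeR). MAPK8, which encodes JNK1, fell by 0.29 but lost its call without siControl replicate 2 (adjusted p = 0.11), without siALKBH5 replicate 2 (adjusted p = 0.10) and with DESeq2 (adjusted p = 0.056). Of 16 genes listed as ERK feedback, not all of which act on ERK, 14 were tested, 2 rose and 1 fell. DUSP6, the ERK phosphatase, rose by 0.69 and DUSP10, a phosphatase of JNK and p38, by 0.51 on the log2 scale. SPRED1 fell by 0.26, a call that was lost without siControl replicate 1 (-0.13, adjusted p = 0.45), without siALKBH5 replicate 1 (-0.17, adjusted p = 0.26), with no filter (adjusted p = 0.055) and with DESeq2 (adjusted p = 0.16).

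Among genes known as AP-1 targets, 22 of 25 were tested, with 9 higher, 4 lower and a median of 0.15. MMP1, the interstitial collagenase, rose from 186 and 232 control counts to 631 and 629 after knockdown, a log2 fold change of 1.55 (SE 0.09, adjusted p = 3.7e-15 by edgeR). MMP13, another collagenase, rose by 0.64 on the log2 scale. IVL, a protein of the cornified envelope, fell from 451.8 and 450.8 CPM to 325.2 and 327.5 CPM, a log2 change of -0.47. SPRR1B, another envelope protein, fell by 0.68 and PLAU, the urokinase, by 0.23 on the log2 scale. The genes named higher here are collagenases, and 2 of the 3 named lower belong to the cornified envelope.

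The MYC network held 11 tested genes of 12, with 4 higher and 5 lower. MXD3 rose by 0.41, MLX by 0.24 and MXD1 by 0.23 on the log2 scale, and MYCL, a relative of MYC, fell by 0.56, MGA by 0.30 and MXI1 by 0.24. Of the 10 genes that act on the turnover or activity of MYC and AP-1 proteins, 4 rose and 3 fell. HUWE1, a ubiquitin ligase of MYC, rose from 337.9 and 344.6 CPM to 449.2 and 455.1 CPM, a log2 change of 0.41. SKP2 rose by 0.20 and TRRAP, a cofactor of MYC, by 0.14 on the log2 scale, and FBXW7, the ligase that marks phosphorylated MYC and JUN, fell by 0.40, USP36 by 0.39 and ITCH by 0.18. SKP2 lost its call without siControl replicate 2 (adjusted p = 0.25), without siALKBH5 replicate 2 (adjusted p = 0.28) and with 3 other settings. TRRAP lost it without siControl replicate 2 (adjusted p = 0.12) and without siALKBH5 replicate 1 (0.09, adjusted p = 0.27), FBXW7 lost it without siControl replicate 2 (adjusted p = 0.16), and both lost it with DESeq2.

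All 25 genes listed as MYC targets were tested, with 8 higher, 4 lower, 13 not passed and a median of -0.08. ODC1, the first enzyme of polyamine synthesis, rose from 138 and 101 control counts to 263 and 251 after knockdown, a log2 fold change of 1.06 (SE 0.15, adjusted p = 5.0e-07 by edgeR). SRM, which acts after ODC1 in the same pathway, rose by 0.53 and NME1, a nucleoside diphosphate kinase, by 0.74 on the log2 scale, where a read-through gene with NME2 may share reads with NME1. NOP16, RRS1 and GNL3, which act in ribosome assembly, fell by 0.49, 0.42 and 0.38. NOP16 and RRS1 lost their calls without siControl replicate 2 (-0.27, adjusted p = 0.25, and -0.39, adjusted p = 0.086), without siALKBH5 replicate 1 (-0.36, adjusted p = 0.069, and -0.36, adjusted p = 0.11) and with DESeq2.

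**Figure D5:**
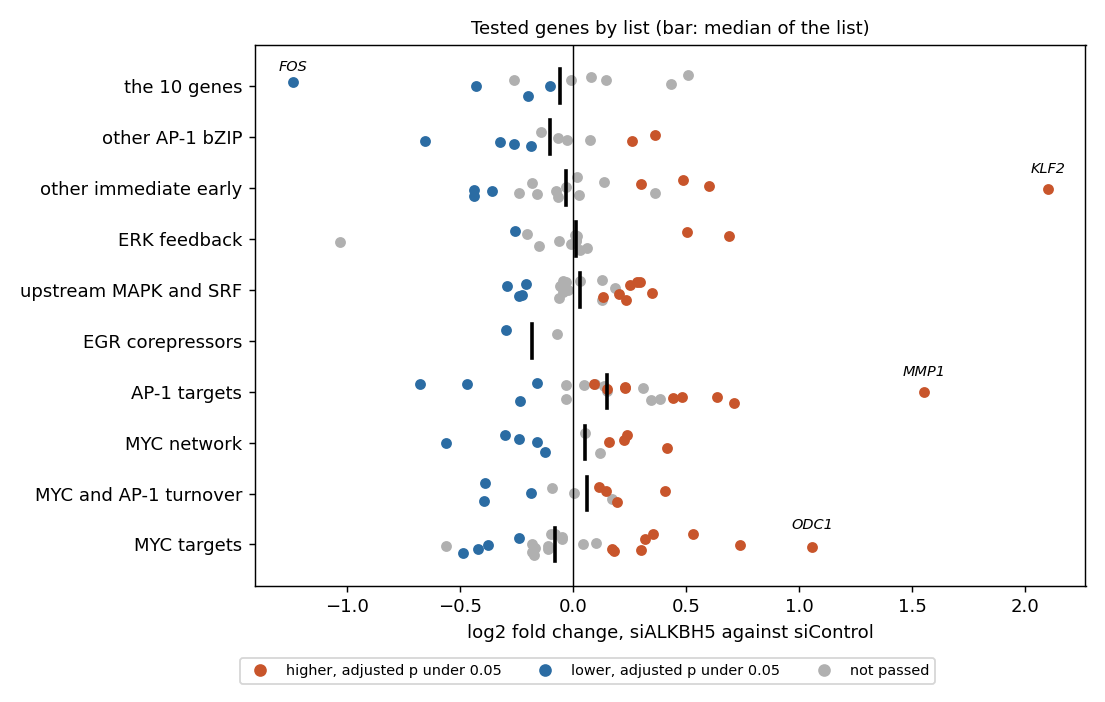
Log2 fold change of siALKBH5 against siControl (x axis) for the tested genes of each list (y axis), with orange for higher, blue for lower and grey for genes that did not pass an adjusted p of 0.05, and a black bar for the list's median. FOS at -1.24 lies at the low end of all lists, and KLF2 at 2.10, MMP1 at 1.55 and ODC1 at 1.06 lie at the high end.

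Heat shock genes, which like the immediate early genes respond to stress, were examined beside the members. Of 8 genes, 4 rose, 3 fell and the median was 0.17. BAG3, a cochaperone, rose by 0.51, HSPA8, the constitutive HSP70, by 0.30 and HSPH1 by 0.23 on the log2 scale. HSPA1A and HSPA1B, the inducible HSP70 genes, fell by 0.39 and 0.35, and DNAJB1 fell by 0.12, where the HSPA1 genes are near-identical copies whose reads the counting could have split.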

How the data were processed

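RNA-seq was analysed in 2 siControl and 2 siALKBH5 libraries of HaCaT cells, grouped by their labels. The authors deposited raw counts per gene, without normalization, in 1 table per replicate. The authors also deposited FPKM scaled within each table, and log2 fold changes and p-values of 1 library against 1, which were not used. The submitters' processing notes name CASAVA, HISAT2 2.0.5, featureCounts 1.5.0-p3, DESeq2 1.20.0 and hg38. The strand setting is not given in the sources used here. Gene identifiers and coordinates were those of GENCODE 29.

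The quasi-likelihood test of edgeR 4.0.16 (R 4.3.3) was applied after filterByExpr and TMM, with no covariates, and Benjamini-Hochberg adjustment over 15075 genes, at an adjusted p of 0.05. CPM are counts relative to the TMM-scaled library size. The common biological coefficient of variation was 0.0253. Alternatives were DESeq2 1.42.0, other scaling and filters, the study's fold threshold, a replicate block and each library left out. On simulated counts edgeR called 45 of 67 genes changed 1.5-fold and 59 of 67 changed 2-fold.

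The 10 members are all named. From each other list the 3 higher and 3 lower passing genes with the largest change were named, if their mean was 1 CPM or more and both replicate numbers moved alike. Some genes that this rule takes are not reported here. Members and lists were chosen with earlier results of these data known. Genes mentioned as too low to test, NAB2, HOOK2 and markers were added for context. Totals of 16017502 to 18837807 counts limit the precision of FOSB, FOSL1 and ATF3.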

Additional observations from a re-analysis of the deposited data

How the results depend on the processing

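The calls of FOS and EGR1 held in all 10 alternatives that kept the p threshold. The 4 lower members became 2 (FOS and EGR1) with DESeq2 and 1 (FOS) with the study's fold threshold, and 2 to 4 with each library left out, where 2 were left without siALKBH5 replicate 2 and 3 without siControl replicate 1. Leaving out a library gave 0 higher members in every case. The fold threshold left 3 higher and 0 lower listed genes, and 244 higher and 196 lower of all genes, and DESeq2 gave 1444 lower genes over all. With each library left out, listed genes ran from 35 to 38 higher and from 23 to 26 lower, and all genes from 2366 to 2528 higher and from 1961 to 2124 lower. Changes near 0 turned sign: with each library left out FOSL1 ran from -0.084 (without siControl replicate 2) to 0.40 and FOSL2 from -0.033 to 0.014 (without siControl replicate 1), with 0.0064 without siALKBH5 replicate 1. Of 52 other genes that the naming rule takes, with ALKBH5 among them, 44 kept their call and direction in all 10 alternatives that kept the p threshold. The other 8 lost the call in 26 values. The cause was not tested. The replicates share only a number: deviations of same-numbered libraries had r = 0.042 over 15075 genes. With the replicate number as a block, the members stayed at 0 higher and 4 lower and listed genes at 40 higher and 29 lower, and all genes gave 3091 higher and 2831 lower.

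The low counts of FOSB, FOSL1 and ATF3, 22 to 63 per library, leave wide 95% intervals, so that a change of the size seen for EGR1 lies inside those of FOSB and ATF3 in the higher direction and inside that of FOSL1 in either.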
